A study of Mus musculus with 8 samples.

Results

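The 10 genes described here encode negative feedback regulators of mitogen-activated protein (MAP) kinase signalling: the dual-specificity phosphatases Dusp1, Dusp2, Dusp4, Dusp5, Dusp6 and Dusp10, the Sprouty proteins Spry1 and Spry2, and the Sprouty-related proteins Spred1 and Spred2. They were chosen by gene symbol, and each has 1 row among the 24453 of the expression table, so that 10 of 10 were found. All 10 passed the filter on low values. The series set regulatory T cells of the mouse lines T143 and T138, both obtained by somatic cell nuclear transfer, beside those of wild-type (WT) mice. Per the series text, T138 models naturally occurring regulatory T cells and T143 those that develop upon agonist encounter. Messenger RNA was sequenced from cells sorted as CD4-positive and Foxp3-positive, in 3 T143, 2 T138 and 3 WT libraries. T143 and T138 are labelled as derived by nuclear transfer and WT as wildtype. All 8 libraries, WT included, carry the strain label NOD-Foxp3GFP-Rag1-/-, which names the NOD background, a Foxp3 reporter and a Rag1 knockout. If that label does not hold for the WT mice, Rag1 genotype and line cannot be told apart. No treatment was given, and ages are not in the labels. Each nuclear-transfer line descends from the nucleus of 1 donor cell. In 2 libraries the labels disagree: by source name T143 replicate 1 would be T138 and WT replicate 1 would be T143, and the titles were followed. Sex-linked transcripts, given below, went with the titles. Nothing in the labels says whether replicates came from separate animals, so the p-values rest on library-to-library spread that may be technical.

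T cell receptor engagement activates Ras, and the Raf, MEK and ERK kinases downstream of it carry the signal to the nucleus. The cell brakes this cascade with proteins whose genes the cascade itself switches on. MAP kinase phosphatases strip phosphate from the activation loop of ERK, JNK or p38, each with its own preference and place in the cell. Sprouty and Spred proteins act upstream, on the route from receptors through Ras to Raf.

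Depth, recovered from the deposited values, was 7.83 to 12.6 M reads in T143, 15.84 to 18.41 in T138 and 14.64 to 22.64 in WT. The unit is the normalised read count, in which each library totals 15.59 M. The markers of T cells and regulatory T cells (8 genes, none at 0 in any library) took 0.299 to 0.376% of signal in T143, 0.757 to 0.77% in T138 and 0.687 to 0.789% in WT. Foxp3, the defining factor of regulatory T cells, was at 3920, 6299 and 8694 in the T143 libraries, 41850 and 41160 in those of T138, and 29770, 36360 and 35360 in those of WT. Il2ra, Ctla4 and Ikzf2 were likewise below both other groups in every T143 library. The T cell genes Cd3d, Cd3g and Cd4 were not. Cd4 was at 10922 to 15941 in T143, 12235 to 12820 in T138 and 14770 to 17655 in WT. Cd3d was at 5243 to 11288 in T143, 3595 to 4002 in T138 and 2991 to 6976 in WT. Cd3e was lower in every T143 library than in both T138 libraries and overlapped WT. It was at 5213 to 8733 in T143, 11130 and 11899 in T138, and 7031 to 12487 in WT. Transcripts of other cell types differed between the groups. The 10 neutrophil markers took 0.562, 0.947 and 3.39% of signal in T143, 0.142 and 0.0261% in T138, and at most 0.00499% in WT, where 3 to 8 of the 10 were at 0. The 8 monocyte and macrophage markers took 0.0783 to 0.318% in T143, 0.086 to 0.109% in T138 and 0.00583 to 0.00727% in WT. The 10 dendritic cell and MHC class II markers took 0.044 to 0.182% in T143, 0.5 to 0.662% in T138 and 0.00807 to 0.0109% in WT. Markers of erythroid cells reached 0.0736% in T143, 0.0108% in T138 and 0.0026% in WT, and those of B cells, NK cells and CD8 T cells stayed at or under 0.00783% in every library. Myeloid and dendritic cells also transcribe genes of these families, and the part of such cells in the values below was not tested. Xist, the transcript of the inactive X chromosome in females, was at 19143 to 24992 in T143 and at most 129.9 in the other libraries. The Y-linked Ddx3y was at most 1.27 in T143, 3634 and 3175 in T138, and 2094 to 3018 in WT. Sex and line thus cannot be told apart in the comparisons with T143. T143 replicate 1 had Xist at 19143 and Ddx3y at 0, and WT replicate 1 had 35.13 and 2923. By these 2 genes both libraries matched their titles and not their source names. In bulk RNA a lower value can mean fewer cells of a type or less RNA per cell, and these cannot be told apart.

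The feedback genes did not move as a block. Dusp5 and Dusp1 were lower, and Dusp6, Spred1 and Spred2 higher, in T143 than in T138. Dusp5 was higher, and Spry1 and Dusp6 lower, in T138 than in WT. T143 held less Spry1, Dusp4 and Dusp2 and more Spry2, Spred1, Dusp10 and Dusp6 than WT. Tests were made with limma on log2(value + 1) over 15547 genes, and a gene was called at a Benjamini-Hochberg adjusted p under 0.05. For T143 against T138, 3 of the 10 were called higher (background over all genes tested 10.8%) and 2 lower (10.2%), or 5 of 10 against 21.0% in either direction. For T138 against WT, 1 was called higher (background 5.74%) and 2 lower (5.3%), or 3 of 10 against 11.0%. For T143 against WT, 4 were called higher (background 11.7%) and 3 lower (12.1%), or 7 of 10 against 23.8%. Both comparisons with WT share the WT libraries. The members were chosen with earlier results of these data known, so these counts are a description and not a test of the list. The median log2 change of the 10 was 0.2 for T143 against T138 (all genes tested 0.152), -0.52 for T138 against WT (all genes -0.065) and -0.05 for T143 against WT (all genes 0.053). The groups did not overlap, with T143 above T138, for 3 of 10 members (background 28.0%) and, with T143 below, for 3 (23.7%), or 6 of 10 against 51.7%. For T138 against WT these counts were 3 above (background 17.7%) and 5 below (19.8%), or 8 of 10 against 37.5%. For T143 against WT they were 5 above (background 20.0%) and 4 below (20.7%), or 9 of 10 against 40.7%. Without T143 replicate 1 and WT replicate 1, the libraries with another line in their source name, 4, 3 and 3 members were called in the same order of comparisons. The calls lost there were Spred2 for T143 against T138, Dusp6 for T138 against WT, and Dusp2, Dusp4, Dusp6 and Dusp10 for T143 against WT, while Dusp1 was gained for T138 against WT. Without the library richest in neutrophil markers of each line (T138 replicate 1, T143 replicate 3), the counts were 6, 3 and 5. Dusp4 was gained there for T143 against T138 and Spred2 for T138 against WT, and the calls lost were Dusp6 for T138 against WT and Dusp2 and Spred1 for T143 against WT. Without T143 replicate 2 the last count fell to 3, and without WT replicate 3 to 4. Under quantile normalization the all-gene median log2 change was 0.0136 for T143 against T138 and -0.0778 for T143 against WT, and limma called the same number of members in each direction in all 3 comparisons. Median centring gave 2 higher and 4 lower for T143 against WT in place of 4 and 3, as described for Dusp1, Dusp6 and Dusp10 below.

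**Figure D1:**
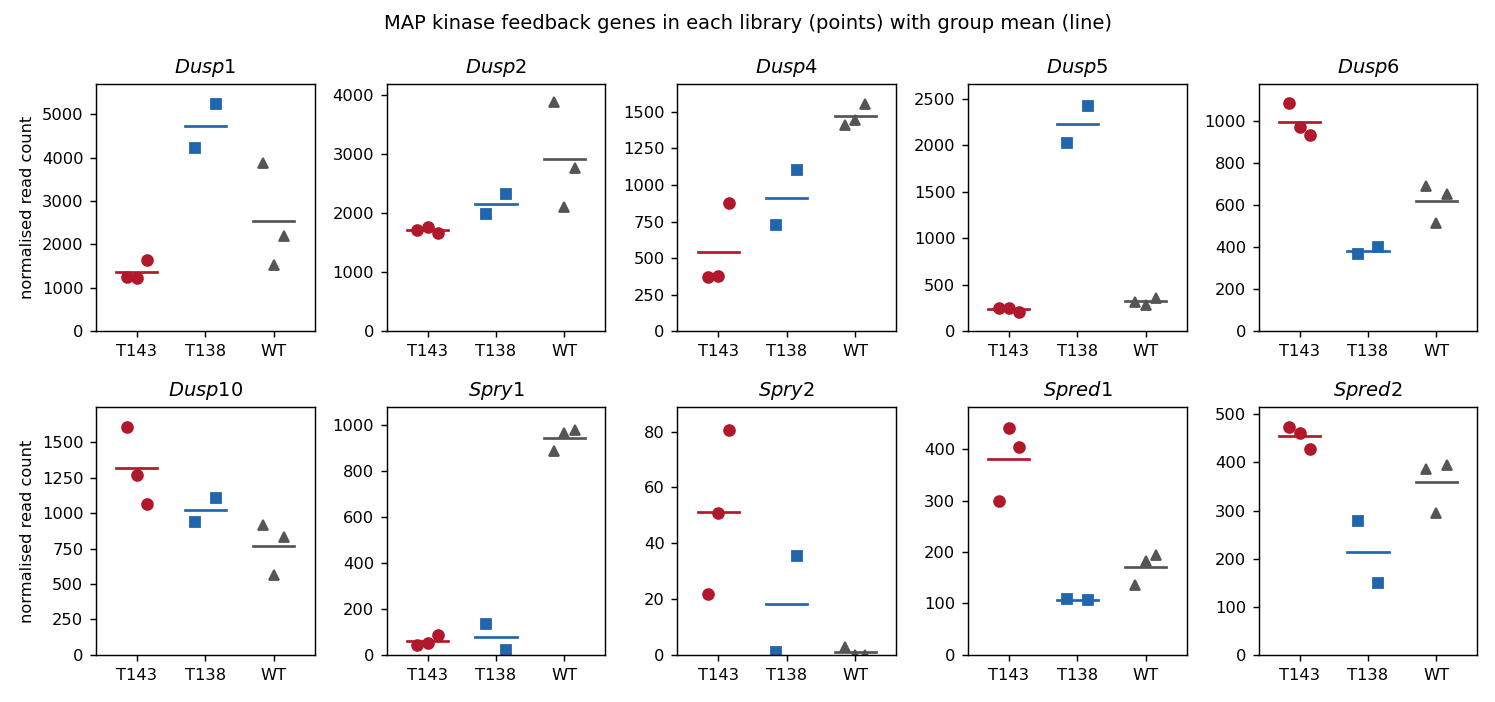
Normalised read count of each of the 10 genes (vertical axes, linear from 0) in the T143, T138 and WT libraries, with each point 1 library and each line a group mean. Dusp5 is at 2029 and 2426 in T138 and under 400 in all other libraries, and Spry1 is at 888.5 to 978.9 in WT and at most 133.9 in the lines.

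**Figure D2:**
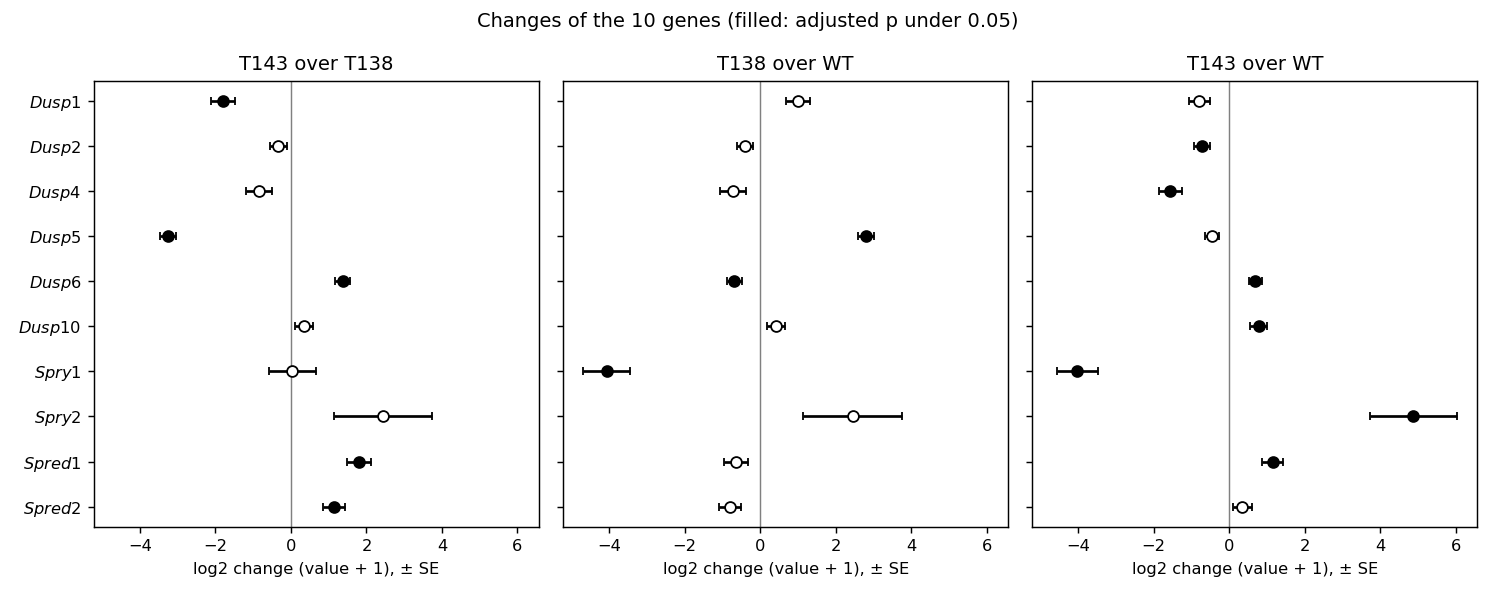
Log2 change on the (value + 1) scale with its SE (horizontal axes) for the 10 genes in the 3 comparisons, where filled points have an adjusted p under 0.05. Dusp5 lies at -3.25 for T143 over T138 and 2.8 for T138 over WT, and Spry1 near -4 for both lines over WT.

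Among the inducible nuclear phosphatases, Dusp5 set T138 apart. Dusp5 encodes a phosphatase selective for ERK that also holds ERK in the nucleus, and its gene lies on chromosome 19 (53529145 to 53541809, GRCm38). It was at 250.8, 245.6 and 205.4 in the T143 libraries, 2029 and 2426 in those of T138, and 316.1, 286.5 and 357.2 in those of WT. Both T138 libraries lay above every other library, and the T143 libraries lay below the WT libraries by a small margin. Dusp5 was 9.52-fold lower in T143 than in T138 by the ratio of means (log2 change -3.25 ± 0.21 SE, limma adjusted p = 1.86e-05) and 6.96-fold higher in T138 than in WT (2.8 ± 0.21, limma adjusted p = 6.3e-05). The difference between T143 and WT did not pass (-0.45 ± 0.19, limma adjusted p = 0.113). Over 20 alternatives the first change lay between -3.37 and -3.12 and the second between 2.67 and 2.92, past the threshold in each. T138 also had the highest share of dendritic cell and MHC class II markers (0.5 to 0.662%, against 0.044 to 0.182% in T143 and 0.00807 to 0.0109% in WT), whose part in the Dusp5 and Dusp1 values was not tested. An annotated antisense transcript overlaps Dusp5, and the sources used here do not say whether strand was counted.

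The Dusp5 promoter is shown because this gene had the largest called change of the 10 between the lines. In the 250 bases before its start (RefSeq, GRCm38.p6, chr19:53528895-53529144, plus strand) a script found 2 CArG boxes, the recognition element of serum response factor, at -82 to -73 and -72 to -63 from the start. An NF-kB motif lies at -90 to -81 and overlaps the upstream CArG box, and a short cAMP response element (TGACG) lies at -55 to -51. Motifs were searched on both strands. Of 32851 promoter windows of that length, 1.47% held a CArG box, 1.41% the NF-kB motif and 17.8% the short element. Of the 9 members with a promoter sequence, Dusp5 alone held either of the first 2 motifs. The capitals mark these matches.
Dusp5: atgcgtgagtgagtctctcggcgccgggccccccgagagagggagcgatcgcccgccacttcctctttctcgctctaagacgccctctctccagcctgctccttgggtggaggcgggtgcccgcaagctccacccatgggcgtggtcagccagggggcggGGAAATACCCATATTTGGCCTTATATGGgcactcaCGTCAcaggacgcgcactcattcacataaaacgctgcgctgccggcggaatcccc

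Dusp1 ran with Dusp5 between the lines. It encodes MKP-1, an immediate early nuclear phosphatase of p38, JNK and ERK (chromosome 17, 26505591 to 26508472). It was at 1250, 1232 and 1640 in the T143 libraries, 4223 and 5238 in those of T138, and 3887, 1527 and 2190 in those of WT. T138 lay above every T143 library and every WT library, and T143 replicate 3 overlapped the range of WT. Dusp1 was 3.44-fold lower in T143 than in T138 (log2 change -1.79 ± 0.32, limma adjusted p = 0.00372), a call kept in all 20 alternatives. The change for T138 against WT was 1 ± 0.32 and did not pass (limma adjusted p = 0.0727). It passed in 3 of 20 alternatives. These were without WT replicate 1, the WT library with the most Dusp1 (1.36, limma adjusted p = 0.00798), and without that library and T143 replicate 1 together. The third was DESeq2 on recovered reads (0.95, DESeq2 adjusted p = 0.0274). The change for T143 against WT was -0.79 ± 0.28 (limma adjusted p = 0.0701). It passed without WT replicate 2 (-1.1, adjusted p = 0.0158, over all alternatives 0.0158 to 0.321) and after median centring (-0.92). It also passed with DESeq2 on recovered reads (-0.83, DESeq2 adjusted p = 0.0198).

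The Dusp1 promoter is shown for comparison with that of Dusp5, since both genes were lower in T143 than in T138. Its 250 bases (RefSeq, GRCm38.p6, chr17:26508473-26508722, minus strand) hold a full cAMP response element (TGACGTCA) at -143 to -136, found in 1.55% of promoter windows, and a further short element at -191 to -187. Neither a CArG box nor the NF-kB motif was found in this window. The short element was the only searched motif, besides the GC-rich GGGCGG, that both promoters held. GGGCGG was present in 7 of 9 members and 32.7% of all windows. The AP-1 motif (TGANTCA, 6.75% of windows), the ETS motif (CCGGAA, 12.0%) and the forkhead motif (TGTTTAC, 3.17%) were found in 0 of 9 members, and the EGR motif (GCGNGGGCG, 4.7%) in 1, Dusp2. The capitals mark the full and short elements and leave out GGGCGG.
Dusp1: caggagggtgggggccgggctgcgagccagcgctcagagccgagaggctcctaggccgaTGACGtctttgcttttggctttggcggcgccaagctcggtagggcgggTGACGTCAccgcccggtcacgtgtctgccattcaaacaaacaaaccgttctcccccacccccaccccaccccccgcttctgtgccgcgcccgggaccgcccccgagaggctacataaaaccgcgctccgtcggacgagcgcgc

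Dusp4 and Dusp2 were highest in WT. Dusp4 encodes MKP-2, a nuclear phosphatase of ERK and JNK (chromosome 8, 34807610 to 34819894). It was at 370.2, 378 and 880 in the T143 libraries, 723.4 and 1103 in those of T138, and 1407, 1445 and 1553 in those of WT. Every WT library lay above every library of the lines, and T143 replicate 3 lay inside the range of T138 while the other two T143 libraries lay below it. Dusp4 was 2.71-fold lower in T143 than in WT (log2 change -1.56 ± 0.31, limma adjusted p = 0.00496). That call was lost without T143 replicate 1 and WT replicate 1 together (-1.38, adjusted p = 0.0553, over all alternatives 0.000255 to 0.0553). The change was -0.84 ± 0.34 for T143 against T138 and -0.72 ± 0.34 for T138 against WT, and neither passed (limma adjusted p = 0.105 and 0.233). Without T143 replicate 3, the T143 library with the most Dusp4 and the most neutrophil signal, both passed (-1.25 with adjusted p = 0.00387, and -0.72 with adjusted p = 0.0439).

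Dusp2 encodes PAC-1, a nuclear phosphatase induced in activated lymphocytes (chromosome 2, 127336159 to 127338377). It was at 1709, 1765 and 1667 in the T143 libraries, 1989 and 2324 in those of T138, and 3884, 2109 and 2766 in those of WT. The T143 libraries lay close together and below all others, and WT spread over the widest range. Dusp2 was 1.7-fold lower in T143 than in WT (log2 change -0.72 ± 0.2, limma adjusted p = 0.0229). The call did not hold without T143 replicate 1, 2 or 3 or WT replicate 1 or 3, each left out alone, with changes of -0.74 to -0.49 and limma adjusted p of 0.052 to 0.0641. It was not called for T143 against T138 (-0.33 ± 0.22) or T138 against WT (-0.4 ± 0.22), with limma adjusted p = 0.318 and 0.303.

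Dusp6, which encodes MKP-3, a cytoplasmic phosphatase of ERK (chromosome 10, 99263231 to 99267489), had the opposite order to Dusp5. It was at 1085, 968.5 and 930.7 in the T143 libraries, 367.1 and 399.6 in those of T138, and 688.1, 513.3 and 652.1 in those of WT. The 3 groups did not overlap, with T143 highest and T138 lowest. Dusp6 was 2.59-fold higher in T143 than in T138 (log2 change 1.37 ± 0.19, limma adjusted p = 0.00117), past the threshold in all 20 alternatives. For T143 against WT the change was 0.69 ± 0.17 (limma adjusted p = 0.015). It missed the threshold without T143 replicate 2 (0.71, adjusted p = 0.0503) and after median centring (0.56, adjusted p = 0.0612, over all alternatives 0.00118 to 0.0612). For T138 against WT the change was -0.68 ± 0.19 (limma adjusted p = 0.0468). That call was lost in 14 of 20 alternatives, with changes of -0.74 to -0.59 and limma or edgeR adjusted p of 0.0531 to 0.19 in those 14, among them edgeR on recovered reads (adjusted p = 0.0621) and the removal of any one library other than WT replicate 2. Per kb of transcript, the ratio of Dusp5 to Dusp6 was 0.261, 0.287 and 0.25 in the T143 libraries, 6.25 and 6.86 in those of T138, and 0.519, 0.631 and 0.619 in those of WT. Dusp5 thus exceeded Dusp6 per kb in both T138 libraries and in no other library. This holds for that pair only, since the nuclear phosphatase transcripts Dusp1 and Dusp2 exceeded Dusp6 per kb in every library.

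The Dusp6 promoter is shown as the contrast to Dusp5. Its 250 bases (RefSeq, GRCm38.p6, chr10:99262981-99263230, plus strand) held none of the searched motifs, GGGCGG included, so no letter is in capitals.
Dusp6: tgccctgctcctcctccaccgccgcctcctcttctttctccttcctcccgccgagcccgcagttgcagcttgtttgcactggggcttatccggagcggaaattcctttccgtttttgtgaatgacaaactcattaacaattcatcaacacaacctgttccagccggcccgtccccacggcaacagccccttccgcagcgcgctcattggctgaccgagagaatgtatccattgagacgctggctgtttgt

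Dusp10 encodes MKP-5, a phosphatase of JNK and p38 (chromosome 1, 184034381 to 184075636). It was at 1610, 1271 and 1066 in the T143 libraries, 936 and 1103 in those of T138, and 918.1, 561.2 and 828.4 in those of WT. T143 lay above WT in every library, T138 lay above WT by a small margin, and the lines overlapped. Dusp10 was 1.71-fold higher in T143 than in WT (log2 change 0.78 ± 0.22, limma adjusted p = 0.0245). The call did not hold without T143 replicate 1 or 2 or WT replicate 2 or 3, each left out alone (0.57 to 0.85, limma adjusted p of 0.0515 to 0.0847), or after median centring (0.65, adjusted p = 0.0675). The changes for T143 against T138 (0.35 ± 0.24) and T138 against WT (0.43 ± 0.24) did not pass, with limma adjusted p = 0.33 and 0.306.

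Of the Sprouty genes, Spry1 was lower in both lines than in WT and Spry2 was higher in T143 than in WT. Spry1 encodes an inhibitor of the route from receptors to Ras and Raf that is induced by T cell receptor signals (chromosome 3, 37639947 to 37644599). It was at 41.79, 52.18 and 86.64 in the T143 libraries, 133.9 and 22.86 in those of T138, and 888.5, 966 and 978.9 in those of WT. The WT libraries lay close together and far above every library of the lines, and the 2 T138 libraries enclosed the T143 range. Spry1 was 15.7-fold lower in T143 than in WT (log2 change -4.02 ± 0.55, limma adjusted p = 0.000817) and 12.1-fold lower in T138 than in WT (-4.06 ± 0.62, limma adjusted p = 0.00247). Both calls held in all 20 alternatives. The T138 change moved to -5.31 without T138 replicate 1 and to -2.81 without T138 replicate 2. The lines themselves did not differ detectably (T143 against T138 0.04 ± 0.62, limma adjusted p = 0.972), and the change ran from -1.21 to 1.29 over the alternatives, so that no direction can be given. The recovered reads behind these values were 132 in T143 and 163 in T138 over all libraries of a line, against 3485 in WT. T138 replicate 1, with the higher Spry1 of that line, had 0.142% of signal from neutrophil markers, against 0.0261% in replicate 2, and T143 replicate 3, highest in its line, had 3.39%. A predicted gene, Gm42922, overlaps Spry1 on the other strand.

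The Spry1 promoter is shown because this gene had the largest called fall of the 10 in both lines. Its 250 bases (RefSeq, GRCm38.p6, chr3:37639697-37639946, plus strand) held GGGCGG at -60 to -55, not capitalised, and none of the other searched motifs. The promoter sequences of Spry2, Spred1, Spred2, Dusp2 and Dusp10 were searched too and are not printed.
Spry1: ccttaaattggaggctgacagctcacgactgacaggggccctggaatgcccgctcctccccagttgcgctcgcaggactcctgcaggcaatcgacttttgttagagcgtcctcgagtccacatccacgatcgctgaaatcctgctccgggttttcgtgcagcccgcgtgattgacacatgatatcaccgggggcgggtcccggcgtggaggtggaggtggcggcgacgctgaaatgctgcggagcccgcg

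Spry2 is a close relative of Spry1 with the same place in the pathway (chromosome 14, 105891947 to 105896819). It was at 21.89, 50.9 and 80.45 in the T143 libraries, 0.98 and 35.56 in those of T138, and 2.76, 0 and 0 in those of WT. All T143 libraries and T138 replicate 2 held it at a low level, whereas T138 replicate 1 had 1 read and the WT libraries 4, 0 and 0 reads. The floor that 3 reads allow was a value of 2.07 to 3.19 in WT. Spry2 was higher in T143 than in WT (log2 change 4.88 ± 1.16, limma adjusted p = 0.0127). The size depends on the pseudocount, at 1.89 with 16 and 6.3 with 0.25, and the call was lost without WT replicate 3 (4.57, adjusted p = 0.0516, over all alternatives 0.0013 to 0.0516). Over pooled reads the rate was 51.3-fold higher in T143 than in WT, with an exact 95% interval of 19.5 to 191 that covers counting error only (116 against 4 reads). Neither T143 against T138 (2.43 ± 1.3, limma adjusted p = 0.209) nor T138 against WT (2.45 ± 1.3, limma adjusted p = 0.281) passed. Within T143 the library with the most Spry2 was replicate 3, which also had the most neutrophil and monocyte signal (3.39 and 0.318%), and the one with the least was replicate 1, with 0.562 and 0.0783%. Within T138 the order was the other way. Replicate 1, with Spry2 at 0.98, had 0.142 and 0.109%, and replicate 2, with Spry2 at 35.56, had 0.0261 and 0.086%. The part of such cells in the Spry2 values was not tested.

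The Spred genes were higher in T143 than in T138. Spred proteins recruit neurofibromin, the product of Nf1, to the membrane, where it switches Ras off. Spred1 (chromosome 2, 117121071 to 117182279) was at 298.5, 441.6 and 403.5 in the T143 libraries, 108.3 and 106.7 in those of T138, and 135, 183.2 and 193.8 in those of WT. The groups did not overlap, with T143 highest and T138 lowest, the order of Dusp6. Spred1 was 3.55-fold higher in T143 than in T138 (log2 change 1.8 ± 0.31, limma adjusted p = 0.00315), in all 20 alternatives, and 2.23-fold higher than in WT (1.15 ± 0.28, limma adjusted p = 0.0135). The call against WT was lost without T143 replicate 2 (1.04, adjusted p = 0.0753, over all alternatives 0.00053 to 0.0753). For T138 against WT the change was -0.64 ± 0.31 and did not pass (limma adjusted p = 0.237).

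Spred2 (chromosome 11, 19924442 to 20024026) was at 473.6, 460.7 and 427 in the T143 libraries, 278.5 and 149 in those of T138, and 385.7, 295 and 395.2 in those of WT. The groups did not overlap, again with T143 highest and T138 lowest. Spred2 was 2.12-fold higher in T143 than in T138 (log2 change 1.15 ± 0.29, limma adjusted p = 0.0196). The call was lost without T138 replicate 2 (0.7, adjusted p = 0.154) and without T143 replicate 2 (1.14, adjusted p = 0.0614), over all alternatives 0.00694 to 0.154. For T138 against WT the change was -0.8 ± 0.29 (limma adjusted p = 0.116), and it passed without T138 replicate 1 (-1.25, adjusted p = 0.0387, over all alternatives 0.0387 to 0.56). T143 against WT was not called (0.35 ± 0.26, limma adjusted p = 0.372). Nf1 itself, in the list of the Ras to ERK cascade, was at 354.2, 493.8 and 560.6 in the T143 libraries, 115.2 and 196.4 in those of T138, and 536.5, 596.4 and 399.8 in those of WT. Both T138 libraries lay below all others, with a log2 change of 1.61 ± 0.31 for T143 against T138 (limma adjusted p = 0.00573) and -1.74 ± 0.31 for T138 against WT (limma adjusted p = 0.00599).

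Levels can be compared between genes once divided by transcript length. On that scale of normalised reads per kb, the most abundant member was Dusp2 in T143 (1060 ± 30.4, SD, n = 3), Dusp1 in T138 (2380 ± 361, n = 2) and Dusp2 in WT (1810 ± 555, n = 3). Dusp5 ranked 7 of 10 in T143, 3 in T138 and 7 in WT. Spry1 ranked 10 of 10 in T143, 8 in T138 and 4 in WT, where its level of 381 ± 19.7 per kb stood above those of Dusp10 (276 ± 66.5) and Dusp6 (221 ± 33). Dusp6 ranked 4 in T143, 6 in T138 and 6 in WT. Spred1 and Spry2 stayed among the 3 lowest in every group. The 10 levels summed to 3130, 3030 and 3260 per kb in T143, 5070 and 6090 per kb in T138, and 6090, 3620 and 4620 in WT. Every T143 library was below every other library on that sum, which Dusp1 and Dusp2 dominate.

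**Figure D3:**
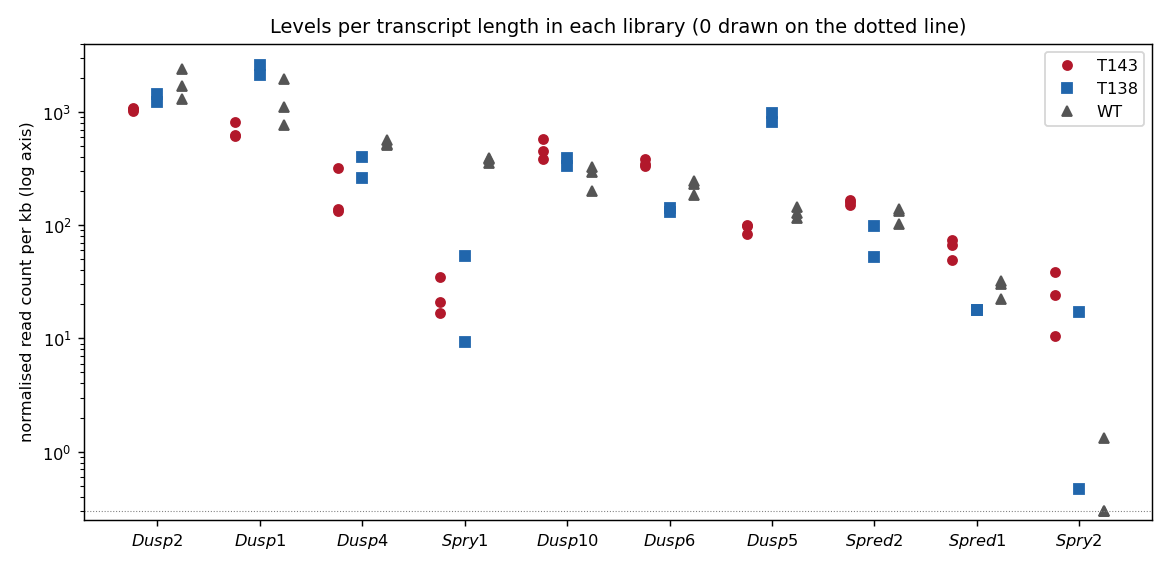
Normalised read count per kb of transcript (vertical log axis) of each gene in each library, with genes ordered by their WT mean and values of 0 drawn on the dotted line. Dusp5 in T138 and Spry1 in WT stand away from the other groups, and Dusp1 and Dusp2 are the highest members in most libraries.

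Over the 8 libraries some members ran together, as a description in which the points share their libraries and line differences. Pearson's r of log2 values was 0.89 for Dusp6 with Spred1, 0.84 for Dusp6 with Spred2, 0.83 for Dusp1 with Dusp5 and 0.71 for Dusp4 with Spry1. It was -0.86 for Dusp5 with Dusp6, -0.89 for Dusp1 with Spred1 and -0.83 for Spry1 with Spry2. Among other genes above the median level, the closest to Dusp5 were Crtc3 (r = 0.987), Osbpl5 (0.979) and Pim1 (0.978). Pim1, a survival kinase gene, was at 3389, 3546 and 4942 in the T143 libraries, 23370 and 24040 in those of T138, and 5352, 4149 and 5363 in those of WT. The closest to Dusp6 were Gbas (0.995), Ndufa9 (0.99) and Rnf157 (0.989), and the closest to Spred1 were Mcm2 (0.99), Cltc (0.983) and Cd93 (0.981). Cd93, a surface protein gene of myeloid and endothelial cells, was at 169.2, 752.1 and 1572 in the T143 libraries, 0 and 0 in those of T138, and 0, 26.62 and 12.16 in those of WT. The closest to Spry1 were Nt5dc3 (0.979), Tbc1d4 (0.972) and Lrig1 (0.97). Lrig1, itself an inhibitor of receptor tyrosine kinases, was at 274.6, 240.5 and 290.9 in the T143 libraries, 239.2 and 122.8 in those of T138, and 2548, 2568 and 2677 in those of WT. Like Spry1, it lay far higher in all WT libraries than in any library of the lines.

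The relatives of the 10 genes were mostly low or uncalled. Of 4 other MAP kinase phosphatase genes (Dusp7, Dusp8, Dusp9 and Dusp16), limma called 0 in each comparison, as did edgeR and DESeq2, and an unadjusted p under 0.05 was reached by 0, 0 and 1 of them for T143 against T138, T138 against WT and T143 against WT. Dusp7, a cytoplasmic ERK phosphatase, was the most abundant of the 4, at 885.6, 713.9 and 540.9 in the T143 libraries, 633.9 and 498.7 in those of T138, and 450.4, 537.8 and 495.5 in those of WT. Of 9 atypical dual-specificity phosphatases tested (10 listed), Dusp18 was called higher in T143 than in T138 and lower in T138 than in WT by limma, while edgeR called 0 of the 9 in both comparisons and DESeq2 1 in each. Its reads were few, at values of 9.95, 7.64 and 13.61 in the T143 libraries, 0 and 0 in those of T138, and 8.95, 5.32 and 9.88 in those of WT. For T143 against WT limma called 0 of the 9 and edgeR 0, DESeq2 called 1, and 2 had an unadjusted p under 0.05. Spry4 and Spred3, the 2 tested of 3 other Sprouty and Spred genes, were called in no comparison by limma, edgeR or DESeq2, with an unadjusted p under 0.05 for 0, 0 and 1. Spry4 was at 19.9, 34.36 and 16.09 in the T143 libraries, 0 and 33.87 in those of T138, and 2.07, 2.13 and 3.8 in those of WT. As for Spry2, T138 replicate 1 was low and replicate 2 within the T143 level.

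The kinases and adaptors of the cascades were called in both directions. In the Ras to ERK list (18 genes), 4 were higher and 2 lower in T143 than in T138 (background in either direction 21.0%), 1 higher and 2 lower in T138 than in WT (11.0%), and 2 higher and 3 lower in T143 than in WT (23.8%). The median log2 changes were 0.17, -0.15 and 0.05, each within 0.1 of the median of all genes tested. The Raf family gene Araf was lower in T143 than in T138 (-0.98 ± 0.13, limma adjusted p = 0.000968) and than in WT (-1.01 ± 0.12, limma adjusted p = 0.000357). Rasa1, a GTPase-activating protein for Ras, was lower in T143 than in T138 (-0.74 ± 0.16) and than in WT (-1.07 ± 0.14), with limma adjusted p = 0.0089 and 0.000639. In the p38 and JNK list (12 genes), 0 were higher and 1 lower in T143 than in T138 (background 21.0%), 1 higher and 0 lower in T138 than in WT (11.0%), and 2 higher and 3 lower in T143 than in WT (23.8%), with median log2 changes of 0, 0.06 and -0.03. Mapk11, which encodes p38 beta, was at 831.9, 790.3 and 545.8 in the T143 libraries, 2094 and 1831 in those of T138, and 1720, 1762 and 1702 in those of WT. It fell in T143 against T138 (-1.46 ± 0.19, limma adjusted p = 0.000838) and against WT (-1.28 ± 0.17, limma adjusted p = 0.000729). Mapk13, which encodes p38 delta, was at 167.2, 244.3 and 1212 in the T143 libraries. It was at 172.2 and 172.7 in those of T138, and 0, 10.65 and 2.28 in those of WT. T143 replicate 3, with the most Mapk13, also had the most neutrophil signal. The T138 libraries had nearly equal Mapk13 with 0.142 and 0.0261% of signal from neutrophil markers. The part of such cells in the Mapk13 values was not tested.

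Genes that ERK induces changed in both directions. Of 16 listed, 3 were higher and 5 lower in T143 than in T138 (background in either direction 21.0%), 5 higher and 4 lower in T138 than in WT (11.0%), and 3 higher and 3 lower in T143 than in WT (23.8%). The median log2 changes were 0.42, -0.1 and 0.1. Egr1, an immediate early transcription factor gene, was at 1972, 2592 and 2283 in the T143 libraries, 7845 and 7217 in those of T138, and 2023, 1877 and 2290 in those of WT, the pattern of Dusp5. Its log2 change was -1.73 ± 0.16 for T143 against T138 and 1.87 ± 0.16 for T138 against WT (limma adjusted p = 0.000173 and 0.000129). Egr3, a relative of Egr1, was at 589.1, 806.8 and 600.3 in the T143 libraries, 182.1 and 253.2 in those of T138, and 860.3, 1213 and 1135 in those of WT, with T138 lowest as for Dusp6. Myc, a growth regulator, was at 1286, 1780 and 1498 in the T143 libraries, 1008 and 874.6 in those of T138, and 2643, 2538 and 3008 in those of WT, highest in WT as were Spry1 and Dusp4. It changed by -1.53 ± 0.17 for T138 against WT and by -0.85 ± 0.15 for T143 against WT (limma adjusted p = 0.000561 and 0.00323).

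**Figure D4:**
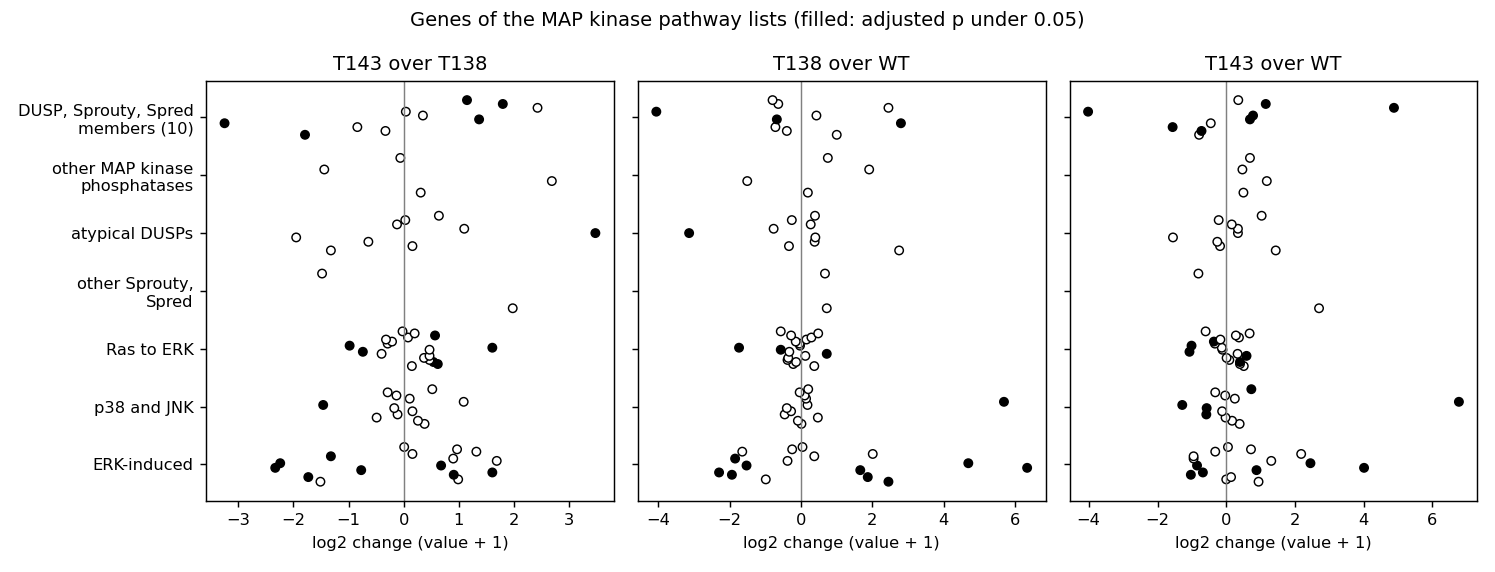
Log2 change on the (value + 1) scale (horizontal axes) of each tested gene of the 10 members and of 6 further pathway lists (rows) in the 3 comparisons, where each point is 1 gene and filled points have an adjusted p under 0.05. The Ras to ERK kinases and adaptors lie mostly within 1 unit of 0. Beyond 2 in at least 1 comparison lie Dusp5, Spry1 and Spry2 among the members, Mapk13 and several ERK-induced genes. So do the low genes Dusp3, Dusp8, Dusp18 and Spry4, of which only Dusp18 was called.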

How the data were processed

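Poly(A) RNA of sorted mouse T cells was sequenced with a stranded kit, per the labels' protocols. The authors deposited a normalised signal per gene in which every value of a library is a whole multiple of 1 step, that is a read count times a constant. CASAVA 1.8.2, STAR 2.5.2b, HOMER 4.8, edgeR and mm10 are named, without roles, in the submitters' processing notes. Strand, multi-mapping and duplicate handling are not given in the sources used here. Within 0.01 deposited units, 100% of values came out as whole reads, and a floor of 3 reads is a value of 2.07 to 5.97. Intervals and floors cover counting error only, since PCR copies were not told from molecules.

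Tests used limma 3.58.1 in R 4.3.3 (empirical Bayes with trend and robust fitting) on log2(value + 1), for 15547 of 24453 genes that reached a value of 1 in 2 or more libraries. All 8 libraries were fitted with group means and no covariate, two-sided, with Benjamini-Hochberg adjustment over all genes tested and a threshold of 0.05. Changes on this scale understate those of low genes. The procedure was also run on simulated counts, whose outcome is not given here, so that run lends no weight to any call. Alternatives were other pseudocounts, filters and scalings, edgeR 4.0.16 (quasi-likelihood, TMM) and DESeq2 1.42.0 on recovered reads, the compared groups alone, a replicate block, and libraries left out.

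The 10 members, the pathway lists and the marker lists were chosen with earlier results of these data known. Named beside the members are up to 4 genes of each pathway list with the smallest p in a comparison, the 3 genes closest to each member called in at least 2 comparisons, and the highest gene of the T cell marker list. Xist, Ddx3y and the T cell genes beside Foxp3 were named after their values were seen. Positions are from RefSeq (GRCm38.p6), transcript lengths from GENCODE transcripts matched by RefSeq transcript, and promoter windows from RefSeq, found for 9 of 10 members (none for Dusp4).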

Additional observations from a re-analysis of the deposited data

How the results depend on the processing

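Of the 30 changes described (10 genes, 3 comparisons), 15 were called. Of these, 7 kept their call in all 20 alternatives, 8 lost it in at least 1, and 0 changed direction. Of the 15 not called, 10 stayed so in all alternatives. Counts of all genes called moved most with the filter and with left-out libraries. For T143 against T138, 3272 genes were called, 1962 with no filter on low values, 1737 without T138 replicate 1 and T143 replicate 3, and 1345 to 3674 when 1 library was left out. For T138 against WT, 1716 were called, 900 with no filter, 989 without that pair, and 757 to 1837 with 1 library left out. For T143 against WT, 3698 were called, 2460 with no filter and 2460 to 3575 with 1 library left out. Members called for T143 against WT numbered 7, 3 without T143 replicate 1 and WT replicate 1, and 3 to 7 with 1 library left out. The cause of these shifts was not tested, other than that no filter adds genes near 0 and that left-out libraries leave fewer samples.

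The uncalled Spry1 change for T143 against T138 (0.04) turned to -0.05 with a pseudocount of 16, -0.05 with median centring, -0.04 with quantile normalization, -0.34 with edgeR, -0.36 with DESeq2 and -0.12 with a replicate block, and ran from -1.21 to 1.29 with 1 library left out. The uncalled Spry2 change (2.43) turned to -0.09 without T138 replicate 1 and T143 replicate 3.

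Same-numbered libraries of T143 and WT deviated together only weakly (r = 0.024, 0.055 and 0.022), though each T143 library correlated best with the WT library of its own number. Same-numbered libraries of T143 and T138 were at -0.062 and 0.004, and those of T138 and WT at 0.014 and 0.01. With 2 libraries in T138, their deviations mirror each other, so r with replicate 2 is always minus r with replicate 1. The values for T143 replicate 1 (-0.062 and 0.062) thus cannot say which T138 library it resembles. Nothing in the labels ties the numbers to animals or days. With a replicate block 3109, 1804 and 3940 genes and 6, 2 and 7 members were called, with Dusp4 called for T143 against T138 (-1.07) and Dusp6 not for T138 against WT (-0.68). Depth limits Spry2, Dusp18 and Spry4, which rest on few reads.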
